A study of Mus musculus with 8 samples.

Results

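The genes of extracellular Wnt signalling were followed in mouse embryonic stem cells (ESC) and in cells obtained from them by retinoic acid (RA)-driven differentiation, with and without huntingtin. The set held 45 of the 19027 protein-coding genes among 32567 annotated genes: 19 Wnt ligands, 10 Frizzled receptors, 4 secreted Frizzled-related proteins (Sfrp), 4 Dickkopf proteins (Dkk), 4 R-spondins (Rspo), and Axin2, Lef1, Tcf7 and Lgr5. The rule takes genes by name pattern and coding status, with the last 4 added by name, and uses no measured value. Of the 45, 37 lay above a limit of 0 on edgeR's average log2 CPM (counts scaled to a library of 1000000) over the libraries, and these entered the comparisons.

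Wnt proteins are secreted, lipid-modified ligands that bind Frizzled receptors together with the co-receptors Lrp5 and Lrp6. In the canonical branch this binding spares beta-catenin from degradation, and beta-catenin then acts with the nuclear factors of the Tcf/Lef family on target genes such as Axin2. Sfrp and Dkk proteins antagonise Wnt signalling outside the cell, whereas R-spondins bind Lgr receptors and keep Frizzleds on the cell surface by removing the ubiquitin ligases Rnf43 and Znrf3. In the embryo, Wnt signals posteriorise the body axis, pattern the neural tube along its dorsal side and guide cell polarity, and RA is used in culture to drive ESC towards neural fates.

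The 4 RNA-seq libraries came from a wild-type parental ESC line and from a huntingtin-null line homozygous for the targeted Hdhex4/5/ex4/5 allele (Htt-null), each sampled as ESC and as RA-DIFF cells, with 1 library per condition. ESC were kept with leukaemia inhibitory factor on feeder fibroblasts or gelatin, and RA-DIFF cells were taken 2 hours after plating, following 4 feeder-free passages and 8 days as embryoid bodies with 5 uM RA from day 4. With 1 library per condition, and 1 line per genotype, a difference between genotypes within a stage has no replicate check and was not tested, and intervals cover counting error only. Differences between stages in both lines, and between genotypes at both stages, were each tested in 1 fit over the 4 libraries. A gene was called higher or lower when its log2 ratio of TMM-normalized CPM, computed with a prior count of 2, passed 0.75 in size. No batch of any kind is named in the labels used here.

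The libraries held between 63617410 and 110569127 counts, so that a count of 0 allows up to 0.0268 to 0.0460 CPM (3 counts). Htt, the targeted gene, had 166 and 111 CPM in wild-type and Htt-null ESC, a log2 ratio of -0.58. In RA-DIFF it had 73.3 CPM in the library labelled wild type and 98.7 CPM in the one labelled Htt-null, a log2 ratio of 0.43 that goes against the labels. Counts over the whole gene include exons outside the targeted exons 4 and 5 and are a weak check. Of 7 genes that separated the ESC lines by a log2 ratio of at least 3, 5 differed in the labelled direction in RA-DIFF and 1 in the opposite one, on at most 71 counts, and 6 of the 7 are pseudogenes. The RA-DIFF libraries are therefore named below by their labels, and exchanging those labels turns the sign of every ratio between them.

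Pluripotency markers summed to 5318 and 4528 CPM in the ESC libraries, wild-type first, and to 55.3 and 13.2 CPM in RA-DIFF, labelled wild type first. Neural progenitor markers moved the other way, from 619 and 549 to 2747 and 2726 CPM, except Sox2, which was called lower in both pairs (578, 495, 213 and 212 CPM). The individual progenitor markers did not all follow that sum, since 3 of 7 (Pax6, Hes5 and Sox1) were called lower under the Htt-null label in RA-DIFF (median of the list -0.65), as were 7 of 8 pluripotency markers (median -2.84). Neuronal markers summed to 2845 CPM in the library labelled wild type and 1280 CPM in the one labelled Htt-null, with 9 of 10 lower in the latter, and mesenchymal markers to 622 and 2348 CPM, with 9 of 10 higher. Over all genes, 11.7% were called higher and 8.99% lower under the Htt-null label in RA-DIFF. In bulk RNA, fewer cells of a type and less RNA per cell cannot be told apart.

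RA-differentiation was accompanied by higher levels of most members. In the cells labelled wild type, 26 members were called higher and 7 lower after differentiation, against 33.9% and 26.1% of the 15492 genes compared. In the cells labelled Htt-null, 28 were called higher and 6 lower, against 34.3% and 24.8%. The pairs share no library, and 25 members were called higher in both (28.8% of all genes) and 6 lower in both (21.1%). The same 25 members had both RA-DIFF libraries above both ESC libraries by more than 0.75 (27.4% of all genes), and the same 6 had both below (20.1%). These counts of non-overlapping libraries do not depend on which RA-DIFF library is which genotype, whereas the number called higher in both pairs was 26 with the labels exchanged, Wnt11 being added. The median log2 ratio of the members was 2.52 and 2.16 in the respective pairs, beside 0.12 and 0.17 over all genes. Of the 25, 10 lay under 1 CPM in both ESC libraries and passed the level limit only through RA-DIFF, so a high ratio was built into their presence among the genes compared. Likewise, 2 of the 6 called lower (Sfrp5 and Wnt6) lay under 1 CPM in both RA-DIFF libraries and passed only through ESC, so their low ratio was built in.

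A fit of stage with the line as a block (edgeR quasi-likelihood, 1 residual degree of freedom) takes the lines as replicates of the stage. At an adjusted p under 0.05 and past the same fold limit, it called 24 members higher and 5 lower, against 27.6% and 20.7% of all genes. Of the 31 members above, those it did not call were Dkk3, with an adjusted p of 0.078, and Wnt6, with 0.066. With the RA-DIFF labels exchanged the same fit called 25 and 6, against 29.6% and 21.9%. Adjusted p-values of the members called by the labels lay between 0.00435, for Rspo2, and 0.045, for Rspo1. The 24 called higher include all 10 members that passed the level limit only through RA-DIFF, Rspo2 among them. Those called lower include Sfrp5, which passed only through ESC. For these members the direction was built in, so their p-values are no separate support.

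**Figure D1:**
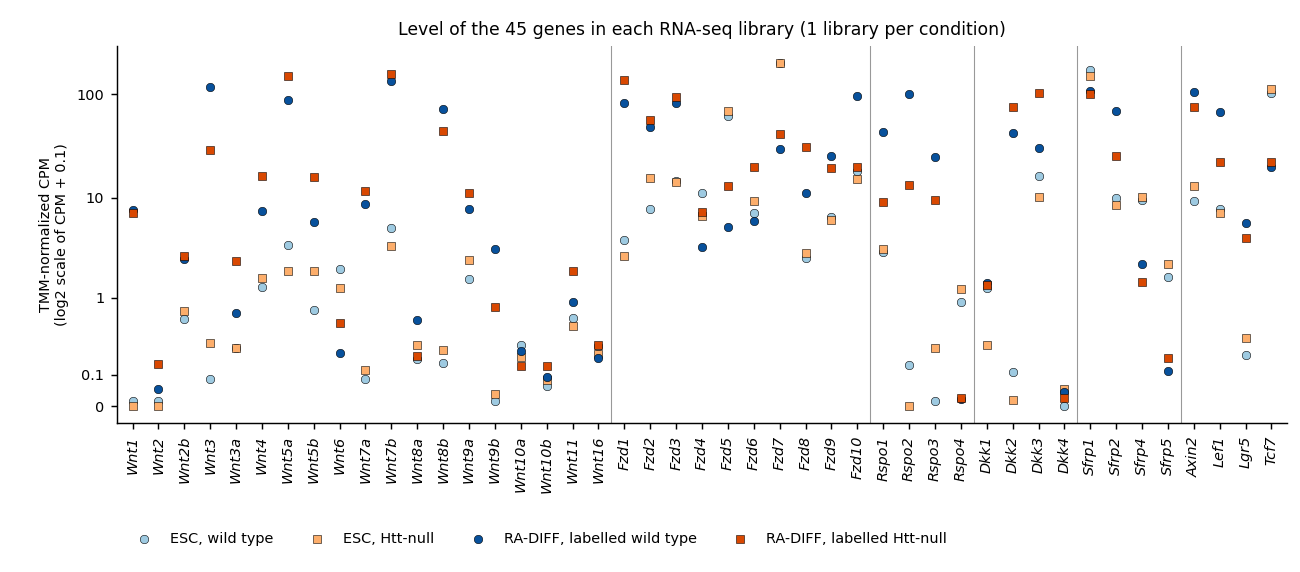
Level of each of the 45 genes (horizontal axis, grouped by role) as TMM-normalized CPM on a log2 scale of CPM + 0.1 (vertical axis); light symbols are ESC, dark symbols RA-DIFF, circles the wild-type label and squares the Htt-null label, with 1 library per symbol. Dark symbols lie above light ones for most Wnt ligands and R-spondins, and below them for Fzd5, Fzd7, Sfrp1, Sfrp4, Sfrp5, Rspo4, Wnt6 and Tcf7.

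Of the 19 ligands, 13 were compared. In both pairs 11 of these were called higher and 1, Wnt6, lower, beside 28.8% and 21.1% of all genes. Among the 11, Wnt1, Wnt2b, Wnt3, Wnt7a, Wnt8b and Wnt9b passed the level limit only through RA-DIFF, so their high ratio was built in. Wnt6 passed only through ESC, so its low ratio was built in. The summed level of all 19 Wnt genes was 16.6 CPM in wild-type ESC, 15.5 CPM in Htt-null ESC, 458 CPM in RA-DIFF labelled wild type and 454 CPM in RA-DIFF labelled Htt-null. In this order, which is kept for all values below, Wnt7b stood at 5.03, 3.36, 135 and 158 CPM. Wnt7b is a ligand of the developing central nervous system, and its RA-DIFF levels were high in both libraries, with log2 ratios to ESC of 4.74 and 5.55. Wnt5a, the prototype of ligands that act without beta-catenin, had 3.42, 1.89, 87.8 and 151 CPM, and log2 ratios of 4.67 and 6.31. Per kb of exon, Wnt7b supplied 24.6% and 33.5% of all Wnt ligand level in the RA-DIFF libraries, and Wnt3, described next, 34.0% and 9.7%.

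A second group of ligands was close to silent in ESC. Wnt3, which the mouse embryo needs to form a primitive streak, had 7, 20, 13120 and 2838 counts, or 0.0807, 0.307, 117 and 28.8 CPM. Its log2 ratios were 10.15 and 6.46. Wnt8b, a ligand of the forebrain and its dorsal midline, had 0.161, 0.245, 71.6 and 44.6 CPM, with log2 ratios of 8.61 and 7.38. Both genes had 20 counts or fewer in each ESC library and 2838 or more in each RA-DIFF library.

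Wnt1, a ligand of the midbrain and dorsal neural tube, had 1, 0, 850 and 707 counts. The ratio in the cells labelled wild type was 658-fold, with a counting interval of 6.88 to 14.67 on the log2 scale, and the other was at least 156-fold. Wnt9b had 1, 2, 356 and 78 counts, a 276-fold ratio (5.62 to 13.41 on the log2 scale) in the cells labelled wild type and a 25.8-fold ratio (2.79 to 7.76) in the cells labelled Htt-null. Wnt7a, a paralogue of Wnt7b, had 0.0807, 0.123, 8.76 and 11.6 CPM. For all 3 the counting intervals lay above 0 in both pairs. All 3 lay under 1 CPM in both ESC libraries and passed the level limit only through RA-DIFF, so a high ratio was built in.

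The remaining ligands called higher in both pairs were present at low levels in ESC already. Wnt4 stood at 1.29, 1.62, 7.50 and 16.3 CPM, Wnt5b, a close paralogue of Wnt5a, at 0.7495, 1.92, 5.87 and 15.96 CPM, and Wnt9a at 1.56, 2.47, 7.75 and 11.1 CPM. Wnt2b had 0.588, 0.721, 2.53 and 2.71 CPM. Their log2 ratios lay between 1.88 for Wnt2b in the cells labelled Htt-null and 3.31 for Wnt4 in the same cells. Wnt11, another ligand of the beta-catenin-independent branch, had 0.5996, 0.491, 0.901 and 1.88 CPM, and was called higher with a log2 ratio of 1.89 in the cells labelled Htt-null and not with 0.57 in the cells labelled wild type. Wnt6 went from 1.97 and 1.26 CPM in ESC to 0.223 and 0.528 CPM, with log2 ratios of -3.02 and -1.22.

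**Figure D2:**
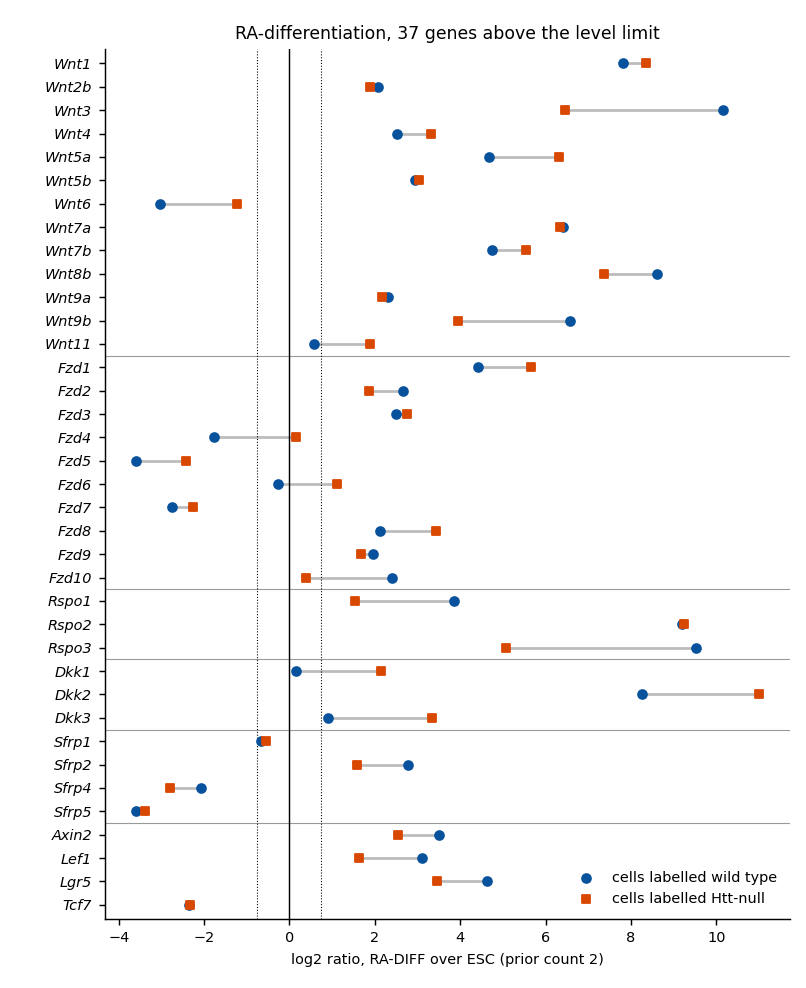
Log2 ratio of RA-DIFF over ESC (horizontal axis, prior count 2) for the 37 genes above the level limit, grouped by role; blue circles are the pair labelled wild type, orange squares the pair labelled Htt-null, and dotted lines mark the limit of 0.75. In both pairs 25 genes lie right of the upper line and 6 left of the lower one; Wnt1 and Rspo2 have 0 counts in Htt-null ESC, so their squares depend on the prior count.

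The Frizzled receptors differed from the ligands in that their summed level changed little while its makeup changed. All 10 passed the level limit, and their sum was 335, 341, 391 and 444 CPM. Fzd7, the most abundant Frizzled of ESC, had 201 and 199 CPM there and 30.05 and 41.7 CPM in RA-DIFF, with log2 ratios of -2.74 and -2.26. Its share of Frizzled level per kb was 63.8% and 62.2% in ESC, and 7.27% and 9.97% in RA-DIFF. Fzd5 had 62.4, 69.1, 5.17 and 12.9 CPM, log2 ratios of -3.59 and -2.41. Both receptors were high in each ESC library and lower in each RA-DIFF library.

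Called higher in both pairs were 5 Frizzleds. Fzd1 went from 3.84 and 2.71 to 83.0 and 139 CPM, with log2 ratios of 4.43 and 5.67 that were the highest of the family. Fzd3, which together with Celsr proteins guides axons, had 14.5, 14.2, 82.0 and 95.5 CPM. Fzd2 had 7.71, 15.5, 48.5 and 56.6 CPM. These receptors, with Fzd8 (2.56, 2.88, 11.2 and 31.2 CPM) and Fzd9 (6.57, 6.04, 25.6 and 19.4 CPM), lay above both ESC libraries in each RA-DIFF library. Per kb of exon, Fzd10 led in the library labelled wild type with 32.5% of Frizzled level, followed by Fzd1 with 21.7%, whereas Fzd1 led in the library labelled Htt-null with 35.9% and Fzd10 had 6.7%.

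The remaining 3 Frizzleds depended on the pair. Fzd10 had 18.1, 15.4, 96.3 and 20.1 CPM, called higher with a log2 ratio of 2.41 in the cells labelled wild type and not with 0.39 in those labelled Htt-null. Fzd4 had 11.2, 6.64, 3.28 and 7.35 CPM, with ratios of -1.77 and 0.15. Fzd6 had 7.16, 9.23, 5.97 and 20.1 CPM, with ratios of -0.26 and 1.12. Each of these splits rested on 1 RA-DIFF library and therefore on its label.

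**Figure D3:**
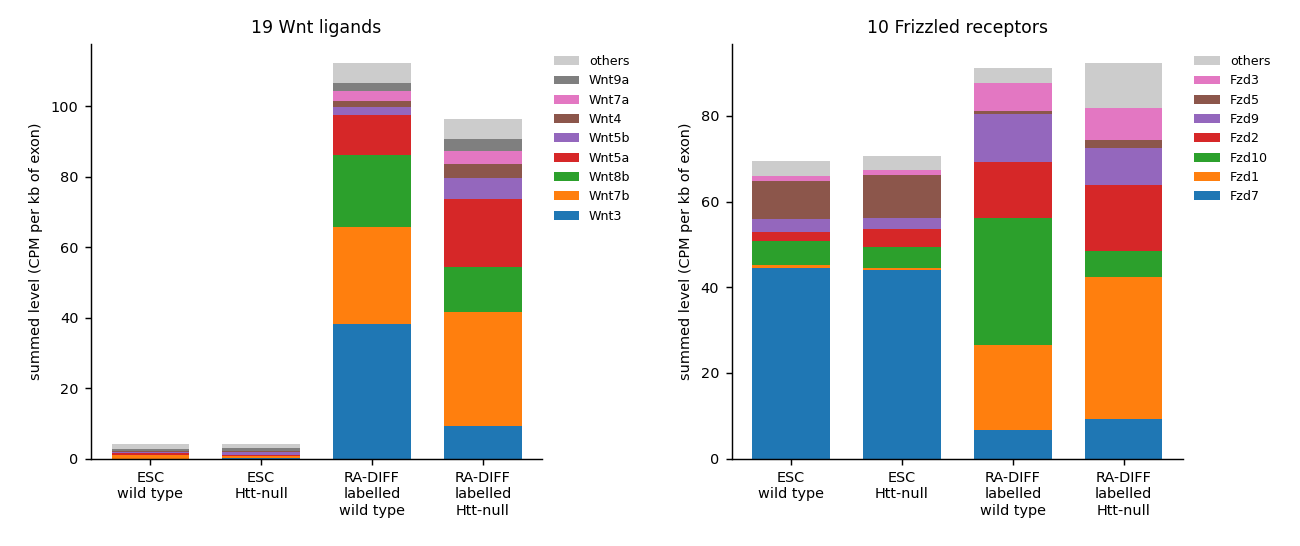
Summed level per kb of exon (vertical axis, CPM per kb) of the 19 Wnt ligands on the left and the 10 Frizzled receptors on the right in each of the 4 libraries (bars), divided by gene. The Wnt bars reach 4.22 and 4.27 in ESC and 112 and 96.4 in RA-DIFF, whereas the Frizzled bars stay between 69.6 and 92.3 while Fzd7 (blue) shrinks from 63.8% and 62.2% to 7.27% and 9.97%.

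Of the 4 R-spondins, 3 passed the level limit, Rspo2 and Rspo3 only through their RA-DIFF levels. Rspo2 had 13, 0, 11394 and 1321 counts, or 0.150, 0, 102 and 13.4 CPM, with a log2 ratio of 9.21 in the cells labelled wild type and at least 292-fold more in the other pair. Rspo3 had 1, 17, 2768 and 939 counts, a 2142-fold ratio (8.59 to 16.37 on the log2 scale) and a log2 ratio of 5.08. Rspo1 had 2.96, 3.16, 43.2 and 9.15 CPM, with log2 ratios of 3.86 and 1.53. All 3 were above both ESC libraries in both RA-DIFF libraries. Rspo4 was under the level limit and went the other way, with 78, 80, 2 and 2 counts.

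Dickkopf genes were uneven. Dkk2 had 10, 1, 4739 and 7517 counts, with a log2 ratio of 8.27 in the cells labelled wild type and a 4979-fold ratio (9.80 to 17.59 on the log2 scale) in the other pair. Dkk3, a divergent family member, had 16.3, 10.1, 30.4 and 103 CPM, log2 ratios of 0.90 and 3.34. Dkk1, the best-known Lrp5 and Lrp6 antagonist, had 1.28, 0.291, 1.42 and 1.36 CPM. Its level was thus similar in 3 libraries and low in Htt-null ESC, and its ratio of 2.14 in the cells labelled Htt-null came from that ESC library.

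Of the 4 Sfrp genes, Sfrp2 was called higher and Sfrp4 and Sfrp5 lower in both pairs. Sfrp1, the most abundant in CPM, had 173, 150, 108 and 102 CPM, with log2 ratios of -0.68 and -0.56 that passed no limit. It was the only one of the 37 members called in neither pair by the labels, and with the RA-DIFF labels exchanged its ratio in the wild-type pair was -0.76, past the limit. Sfrp2 had 10.01, 8.58, 69.1 and 25.6 CPM, log2 ratios of 2.78 and 1.57. Its share of Sfrp level per kb of exon was 55.9% and 33.3% in RA-DIFF, beside 43.0% and 65.4% for Sfrp1. Sfrp4 went from 9.49 and 10.2 to 2.25 and 1.45 CPM and Sfrp5 from 1.65 and 2.24 to 0.116 and 0.193 CPM. The median of the family was below 0 in both pairs, at -1.37 and -1.68.

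Axin2, a negative regulator of the pathway that is itself a standard target of beta-catenin, had 9.25, 13.1, 105 and 76.3 CPM, with log2 ratios of 3.50 and 2.55. The nuclear factors Tcf7 and Lef1 moved in opposite directions. Tcf7 had 103, 114, 20.1 and 22.4 CPM (-2.36 and -2.34), and Lef1 7.78, 7.10, 67.1 and 22.1 CPM (3.10 and 1.63). Lgr5, an R-spondin receptor and a Wnt target in adult stem cells, had 0.208, 0.353, 5.69 and 4.07 CPM (4.64 and 3.45). In ESC, Tcf7 held 93.8% and 93.1% of the summed level per kb of these 4 genes.

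Of the 8 members under the level limit, 3 reached 30 counts in some library. Besides Rspo4 these were Wnt3a, with 23, 17, 78 and 236 counts and an average log2 CPM of -0.08 just under the limit, and Wnt8a, with 16, 19, 64 and 20 counts. Wnt3a, a canonical ligand of the streak and dorsal midline, was higher in both RA-DIFF libraries by ratios of 1.32 and 3.10. Just inside the limit were Wnt11 and Wnt6, both at 0.00. The remaining 5 (Dkk4, Wnt2, Wnt10a, Wnt10b and Wnt16) had between 0 and 28 counts in every library.

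Between the ESC lines 9 members were called in either direction, against 8.61% of all genes. In Htt-null ESC, 4 were called higher and 5 lower, against 5.14% and 3.47%. The median log2 ratio was 0.09 over the 37 members and -0.04 over all genes. Of the 9, 5 had at least 111 counts in 1 of the ESC libraries. Fzd2 had 669 counts (7.71 CPM) in wild-type and 1013 counts (15.5 CPM) in Htt-null ESC, a log2 ratio of 1.01 with a counting interval of 0.87 to 1.15. Wnt5b had 65 and 125 counts, a ratio of 1.33 (0.91 to 1.81).

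Lower in Htt-null ESC were Dkk1, with 111 and 19 counts and a log2 ratio of -2.05 (-2.92 to -1.43), and Wnt5a, with 297 and 123 counts and a ratio of -0.85 (-1.18 to -0.55). Fzd4, with 972 and 433 counts, lay at the limit itself with -0.75 (-0.92 to -0.59). The other 4 calls came from genes that were near silent in ESC. Wnt3 had 7 and 20 counts, a ratio of 1.68 (0.63 to 3.41). Rspo3 had 1 and 17 counts, a 22.6-fold ratio (1.82 to 9.88 on the log2 scale), Dkk2 10 and 1 counts, 7.52-fold lower (-8.35 to -0.10), and Rspo2 13 and 0 counts, at least 3.26-fold lower. The abundant members of ESC, Fzd7, Tcf7, Sfrp1 and Fzd5, had ratios between -0.20 and 0.15. Mesenchymal markers summed to 44.9 and 29.0 CPM in these ESC libraries, 5 of 10 lower in the Htt-null line and 1 higher, and their part in the differences was not tested.

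Between the RA-DIFF libraries, the one labelled Htt-null was called higher for 11 members and lower for 8, against 11.7% and 8.99% of all genes, or 19 in either direction against 20.7%. This comparison shares its libraries with the RA comparisons above, so its ratios follow from the same values. The members' median of 0.22 lay near that of all genes (-0.01). All 3 R-spondins compared were called lower under the Htt-null label, with a median of -2.24, whereas the ligands (5 higher, 2 lower) and the Frizzleds (4 higher, 1 lower) went both ways. With the labels exchanged every one of these ratios takes the opposite sign.

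A fit of genotype over both stages, with the stage as a block (edgeR quasi-likelihood, 1 residual degree of freedom), called 0 of 37 members and 0 of 15492 genes (0.0%) at an adjusted p under 0.05. This fit takes the 2 stages of a line as replicates of its genotype, and with 1 line per genotype it cannot tell genotype from line. At an unadjusted p under 0.05 it gave 2 members, against 2.36% of all genes, Rspo2 with a log2 ratio of -3.08 and Wnt5b with 1.40 (adjusted p of 0.999 for both). With the RA-DIFF labels exchanged, the fit called 0 genes (0.0%) at the adjusted threshold. At the unadjusted one it gave 10 members (Wnt3, Wnt5a, Wnt8b, Wnt9b, Fzd1, Fzd4, Dkk2, Dkk3, Rspo3 and Axin2), against 5.18% of all genes. No other count-based tool was run on this question.

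Rspo2 differed most, with 102 CPM in the library labelled wild type and 13.4 CPM in the other, a log2 ratio of -2.92 (-3.01 to -2.84). It was called lower under the Htt-null label at both stages, on 13 and 0 counts in ESC. Rspo1 had 43.2 and 9.15 CPM (-2.24) and Rspo3 24.7 and 9.54 CPM (-1.37). The summed R-spondin level was 170 CPM in the library labelled wild type and 32.1 CPM in the one labelled Htt-null. Fzd10 had 96.3 and 20.1 CPM, a ratio of -2.26 (-2.33 to -2.19), Lef1 67.1 and 22.1 CPM (-1.60) and Sfrp2 69.1 and 25.6 CPM (-1.43). Axin2, by comparison, had 105 and 76.3 CPM, a ratio of -0.45 under the limit.

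Wnt3 and Wnt9b were both called lower in the library labelled Htt-null. Wnt3 had 117 and 28.8 CPM, a log2 ratio of -2.02 (-2.08 to -1.96), and Wnt9b 3.18 and 0.792 CPM, a ratio of -1.97 (-2.38 to -1.65). Wnt9b lay under 1 CPM in the other 3 libraries and passed the level limit only through the one labelled wild type, so its low ratio was built in. These genes are neighbours on chromosome 11 of GRCm38, with Wnt9b on the minus strand at chr11:103727364-103749821 and Wnt3 on the plus strand at chr11:103774150-103817957. The 24.328 kb between them hold no protein-coding gene, and their starts face each other.

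Of 4 Wnt pairs within 100 kb with no coding gene between them, this was the only one with both genes above the level limit, so the others could not be called as pairs. Their ratios between the RA-DIFF labels were those of Wnt6 and Wnt10a (chr1, 1.17 and -0.68), Wnt3a and Wnt9a (chr11, 1.75 and 0.52) and Wnt10b and Wnt1 (chr15, 0.56 and -0.08), where Wnt10a, Wnt3a and Wnt10b lay under the limit. The starts of Wnt3a and Wnt9a, and those of Wnt10b and Wnt1, also face each other. The promoter windows of Wnt9b and Wnt3 are shown as those of neighbours with facing starts. They run from 250 bases before to 50 after the RefSeq start on GRCm38.p6, 5′ to 3′ on each gene's own strand, with every CG dinucleotide in capitals.
Wnt9b (chr11:103749772-103750071, minus strand): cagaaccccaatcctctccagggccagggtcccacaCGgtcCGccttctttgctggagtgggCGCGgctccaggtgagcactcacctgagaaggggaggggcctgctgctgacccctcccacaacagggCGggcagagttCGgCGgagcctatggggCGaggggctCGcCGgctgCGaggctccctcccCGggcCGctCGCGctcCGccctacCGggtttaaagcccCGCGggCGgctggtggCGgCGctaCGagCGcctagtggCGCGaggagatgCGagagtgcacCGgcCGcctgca
Wnt3 (chr11:103773925-103774224, plus strand): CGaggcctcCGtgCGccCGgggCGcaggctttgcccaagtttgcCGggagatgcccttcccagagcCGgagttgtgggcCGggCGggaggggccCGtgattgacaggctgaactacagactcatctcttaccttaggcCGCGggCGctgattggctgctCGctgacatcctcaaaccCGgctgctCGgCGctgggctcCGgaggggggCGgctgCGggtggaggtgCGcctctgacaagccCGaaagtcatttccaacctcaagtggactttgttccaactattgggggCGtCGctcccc
Both windows are rich in G and C, at 71.7% and 65.7%, with 29 and 24 CG dinucleotides. Over the 30 of 45 members with a window in RefSeq, the median was 70.8% G and C and 30 CG dinucleotides, and over 13875 coding genes 59.7% and 18.

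Higher in the library labelled Htt-null were 5 ligands, 4 Frizzleds and 2 Dickkopf genes. Wnt5a had 87.8 and 151 CPM, a ratio of 0.78 just past the limit (0.72 and not called with library totals alone), Wnt5b 5.87 and 15.96 CPM (1.44) and Wnt11 0.901 and 1.88 CPM (1.04). Wnt11 was under 1 CPM in the other 3 libraries, so its high ratio was built in by the level limit. Wnt4 had 7.50 and 16.3 CPM (1.12), and Wnt6, on 25 and 52 counts, a ratio of 1.17 (0.53 to 1.99). Wnt5b is the only ligand called higher under the Htt-null label at both stages, although with the RA-DIFF labels exchanged its RA-DIFF ratio would be -1.44.

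Of the receptors, Fzd6, a planar polarity receptor of skin and neural tube, differed most among those higher, with 5.97 and 20.1 CPM and a ratio of 1.75. Fzd8 had 11.2 and 31.2 CPM (1.48), Fzd5 5.17 and 12.9 CPM (1.32) and Fzd4 3.28 and 7.35 CPM (1.16). Fzd1, at 0.74, lay just under the limit. Dkk3 had 30.4 and 103 CPM (1.76) and Dkk2 42.3 and 76.3 CPM (0.85). The summed Dickkopf level was 74.2 CPM in the library labelled wild type and 181 CPM in the other.

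**Figure D4:**
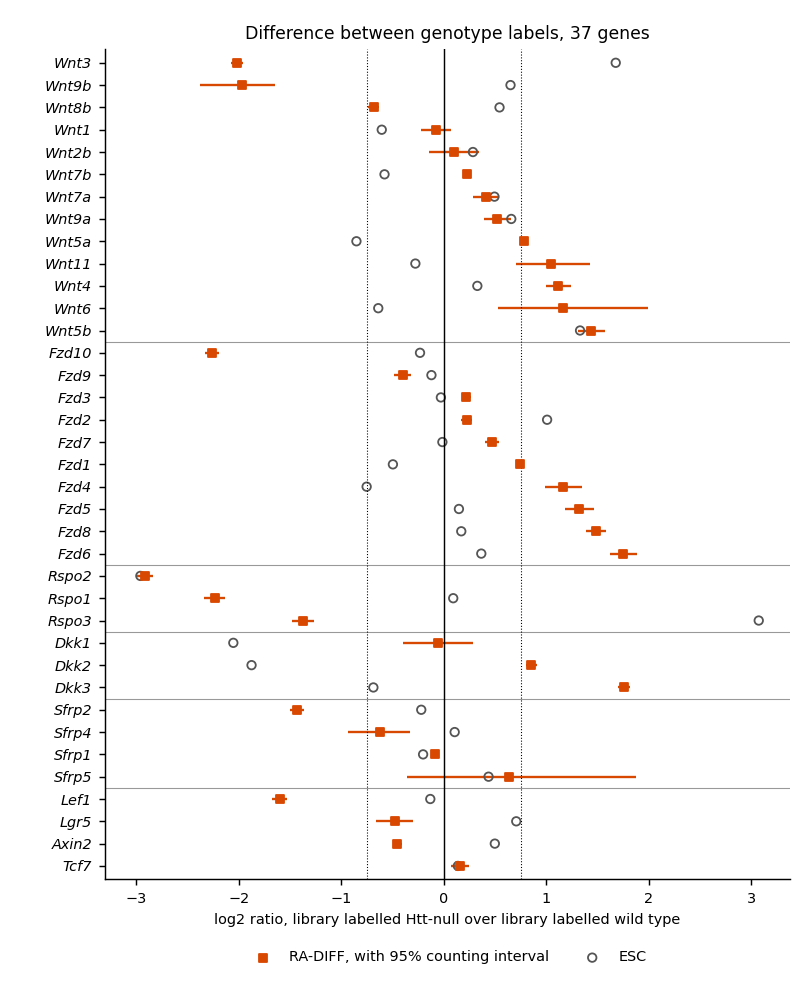
Log2 ratio between the genotype labels, Htt-null over wild type (horizontal axis, prior count 2) for the 37 genes, grouped by role; squares are RA-DIFF with 95% counting intervals, open circles ESC without intervals, and dotted lines mark 0.75. In RA-DIFF the 3 R-spondins, Wnt3, Wnt9b, Fzd10, Lef1 and Sfrp2 lie left of the lower line and 11 genes lie right of the upper one; the ESC circles of Rspo2, Rspo3, Dkk2 and Wnt3 rest on 20 counts or fewer.

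Cell-type markers differed between the same libraries. Beside the neuronal and mesenchymal lists given above, the 4 floor plate markers were all higher in the library labelled Htt-null, with a sum of 107 and 614 CPM, and Shh, their secreted signal, had 11.8 and 101 CPM. Roof plate markers summed to 24.5 and 31.9 CPM. Of these 5 dorsal midline genes, 3 were lower and Bmp6 was higher with a ratio of 3.34. Endothelial markers summed to 23.9 and 88.6 CPM, mostly from Kdr (17.9 and 71.7 CPM). Of the 5 compared, 3 were called higher, namely Kdr (2.00), Emcn (3.46) and Tek (1.90), with Pecam1 called lower (-1.35) and Tie1 not called. The sums were, for endodermal markers, 6.14 and 16.6 CPM and, for primitive streak markers, 10.1 and 16.2 CPM. The endodermal sum rests on Foxa2 (1.88 and 12.3 CPM), also a floor plate marker, with Gata4, Gata6 and Sox17 not called. The streak sum rests on T (0.607 and 11.9 CPM), with Tbx6 (-0.87) and Eomes (-1.16) called lower and Mesp1 and Msgn1 at 0 counts in both libraries. The part of these cell types in the differences of the Wnt genes was not tested.

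Of the 30 members with a promoter window, 2 held the Tcf/Lef motif CTTTGAT on either strand, Wnt11 and Wnt5b (in 1 of its 3 windows). This is 6.67% of members beside 3.35% of 13875 coding genes. The Wnt5b window with the motif lies inside the annotated gene, which spans chr6:119432531-119544347. The windows are shown, 5′ to 3′ on the gene's strand, with the motif or its reverse complement in capitals, beginning 71 bases before the start in Wnt5b and 51 before it in Wnt11.
Wnt5b (chr6:119449337-119449636, minus strand): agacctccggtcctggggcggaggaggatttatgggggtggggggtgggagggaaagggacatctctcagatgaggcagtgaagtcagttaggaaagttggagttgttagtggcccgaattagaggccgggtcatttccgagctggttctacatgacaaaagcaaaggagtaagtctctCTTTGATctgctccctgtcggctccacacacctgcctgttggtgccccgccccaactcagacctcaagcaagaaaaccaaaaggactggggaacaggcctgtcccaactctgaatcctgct
Wnt11 (chr7:98834862-98835161, plus strand): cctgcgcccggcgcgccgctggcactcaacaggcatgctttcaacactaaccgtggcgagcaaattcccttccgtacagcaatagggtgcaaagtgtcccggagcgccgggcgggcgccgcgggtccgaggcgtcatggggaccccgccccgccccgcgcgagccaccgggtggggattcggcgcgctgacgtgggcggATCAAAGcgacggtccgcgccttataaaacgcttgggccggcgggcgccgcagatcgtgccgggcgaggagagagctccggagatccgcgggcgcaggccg
A loose form of the RA receptor element, 2 copies of GNTCA in the same orientation with 6 bases of any kind between them, was found in 0 of these 30 members and 0.757% of coding genes. These matches describe letters in the windows and not binding.

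The other parts of the pathway were read through 53 further genes, of which 48 passed the level limit. In RA-DIFF, 28 of the 48 were called higher in both pairs and 3 lower, beside the 28.8% and 21.1% of all genes given above. Of the 28, 5 (Frzb, Rnf43, Sostdc1, Sp5 and Wif1) lay under 1 CPM in both ESC libraries and passed the limit only through RA-DIFF, so their high ratio was built in. Among these, Frzb, a secreted Frizzled-related antagonist, had 1, 15, 2525 and 1997 counts. Apcdd1, a membrane inhibitor, had 7.35, 7.53, 479 and 140 CPM (6.02 and 4.22). Wls, the carrier that brings every Wnt ligand to the cell surface, stood at 4.96, 4.77, 226 and 230 CPM, with log2 ratios of 5.51 and 5.59. It was thus equal between the labels and high in RA-DIFF, as the summed ligand level was.

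Porcn, the acyltransferase that lipidates Wnt proteins, went the other way with 45.9, 39.5, 18.3 and 14.4 CPM. Notum, the enzyme that removes the lipid, had 26.2, 18.6, 2.69 and 2.43 CPM and was the furthest below ESC. Ctnnb1, which encodes beta-catenin, had 1144, 1022, 1411 and 1547 CPM and was called in neither pair. Of the 9 cytoplasmic genes, 2 (Dvl3 and Gsk3b) were called higher in both pairs.

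Between the RA-DIFF libraries 12 of these 48 genes were called higher in the one labelled Htt-null and 5 lower, beside 11.7% and 8.99% of all genes. T (brachyury), a streak and notochord gene, had 68 and 1172 counts and a ratio of 4.24, but lay under 1 CPM in the other 3 libraries and passed the level limit only through the one labelled Htt-null, so its high ratio was built in. Sostdc1 (2.24) and Wif1 (1.89), both secreted antagonists, the R-spondin receptor Lgr6 (1.86), the Wnt5a receptors Ror2 (1.62) and Ror1 (1.35), and Nkd2 (1.56) were also higher. Apcdd1 was furthest on the other side with -1.77. The medians of the 48 genes in this comparison and of all genes were 0.17 and -0.01. In ESC, Rnf43, Wif1, Frzb and Sostdc1 were called higher in the Htt-null line and Sp5 lower, beside 5.14% and 3.47% of all genes, and each of these had 50 counts or fewer in both ESC libraries.

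Some members share exon bases with a gene on the opposite strand in the annotation used for lengths. The shared part was 17.8% of Fzd5, 16.1% of Sfrp2, 13.7% of Lef1 and 13.1% of Rspo3. The libraries were made with a strand-specific method, but the strand setting of the counting is not named. Where the partner has counts of its own they were at most 209 in RA-DIFF, beside 2173 or more for Axin2, Lef1, Sfrp2, Wnt5a and Wnt7b.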

How the data were processed

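Per the labels and Methods, the authors sequenced poly-A RNA as 50-base paired ends, aligned it with TopHat2 2.0.14 to GRCm38.p4 guided by GENCODE M6, and deposited raw read counts per gene made with HTSeq 0.6.1 (intersection-nonempty). The strand option is not given in the sources used here. All 4 RNA-seq columns were matched to samples by name. The small RNA counts were not used here.

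From these counts, TMM-normalized CPM, log2 ratios (prior count 2) and average log2 CPM were computed with edgeR 4.0.16 in R 4.3.3, leaving 15492 genes. Code was tested on simulated counts. The average log2 CPM as edgeR weighs it served as level limit, with the plain mean as an alternative. Stage and genotype were also tested with edgeR's quasi-likelihood test on the counts (both as terms, Benjamini-Hochberg adjustment), added after seeing the data. Intervals are exact conditional binomial ones (95%). Exon lengths came from GENCODE vM21, found for 32304 genes. Promoter windows came from RefSeq. Protein sequences were not used here.

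Members and gene lists were chosen with earlier results of these data known. Every member above the level limit is named, as are those under it with at least 30 counts, and at most 8 other pathway genes per comparison, the largest first; Porcn, Notum, Ctnnb1, Dvl3, Gsk3b and the cell-type genes were chosen after their values were seen.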

Additional observations from a re-analysis of the deposited data

Results flagged for a closer look

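For 5 members the ESC and RA-DIFF comparisons of the genotype labels went in opposite directions, with 1 library on each side. In all, 7 members were called at both stages, of which Wnt5b and Rspo2 kept their sign, and over all 15492 genes 619 were called at both, 373 of them in opposite directions (60.3%). Wnt3 had a log2 ratio of 1.68 in ESC and -2.02 in RA-DIFF, and Rspo3 3.07 and -1.37. Wnt5a (-0.85 and 0.78), Dkk2 (-1.88 and 0.85) and Fzd4 (-0.75 and 1.16) turned the other way. The differences between stages were not tested, since an interaction leaves no residual degree of freedom. With the RA-DIFF labels exchanged, each of the 5 would have the same sign at both stages. Wnt3, Rspo3 and Dkk2 rest on 20 counts or fewer in ESC. Wnt5a in RA-DIFF and Fzd4 in ESC were no longer called with library totals alone.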

How the results depend on the processing

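Counts of members called were recomputed with DESeq2 size factors, library totals alone, a prior count of 0.5, no level limit, a fold limit of 1, exact tests at assumed dispersions of 0.01 and 0.1 (p under 0.05, unadjusted, for 2 libraries and not for conditions), exchanged RA-DIFF labels and, chosen after seeing the data, the mean of the log2 CPM as level limit and fits of stage or genotype over the 4 libraries. Of 98 such values, 94 stayed within 1.5 times the count reported. At a dispersion of 0.1, members called between the ESC lines were 2 higher and 2 lower (4 and 5 reported), and 5 rather than 11 were higher under the Htt-null label in RA-DIFF, since that test asks for larger differences. A fold limit of 1 left 3 members lower in Htt-null ESC. With the RA-DIFF labels exchanged, Fzd6 in the Htt-null pair had a ratio of -0.63 in place of 1.12, and every ratio between the RA-DIFF libraries changed sign by construction. With library totals alone, Wnt5a (0.72 between them) and Fzd4 in ESC (-0.70) were no longer called, and Wnt11 went under the level limit. In all, 71 single-gene values, Fzd6 included, moved by more than their counting interval, 54 of them with the labels exchanged. The stage fit called 24 members higher and 5 lower with the line as replicate block and 25 and 6 with no replicate block. The genotype fit called 0 members with the stage as replicate block and 0 with no replicate block. No replicate could be left out within a condition. Depth limits members at a few counts in ESC.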
